A study of Mus musculus with 4 samples.

Results

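Transcripts of 9 complement genes were followed in cultured Kupffer cells, macrophages that line the liver sinusoids of the mouse, given maresin 1 or its vehicle. The 9 genes were taken from a list and were found on the arrays through the RefSeq accession printed for each probe. All 9 had at least 1 probe, 13 probes in all, and all 9 are among the 24056 genes tested. They are C1qa, C1qb, C1qc, C1ra, C4b and C2 of the classical pathway, C3, in which the pathways meet, and Cfb and Cfp of the alternative pathway. The cells came from male C57BL/6 mice aged 8 weeks, were purified on Percoll after collagenase perfusion, and were plated with 10% serum. MaR1 cultures then received 200 nM maresin 1, a lipid mediator derived from docosahexaenoic acid in macrophages, and Veh cultures received ethanol. Treatment lasted 24 h in 0.1% serum in each group, and each group had 2 single-colour arrays. The labels give no number of mice or cultures behind an array, so each p-value rests on the spread among the 4 arrays alone, and that spread may be technical.

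Complement is a cascade of plasma proteins that marks particles for uptake, attracts leukocytes and can form pores in membranes. In the classical pathway the recognition protein C1q carries the proteases C1r and C1s, which cut C4 and C2 to build an enzyme that cleaves C3. In the alternative pathway factor B binds cleaved C3 to form a second such enzyme, which properdin, the product of Cfp, stabilises. Hepatocytes supply most C3, C4 and factor B of plasma, whereas tissue macrophages, Kupffer cells among them, are a main source of C1q and also make C3, C2, factor B and properdin.

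The sequences upstream of the annotated start of C3, the member with the largest difference, and of 2 neighbouring C1q chain genes, which differed little, are given for reference. They are from RefSeq (GRCm38.p6), in which 5 of the 9 members matched, and run 5′ to 3′ in the direction of the gene over the 250 bases before its start. The C3 window is chr17:57228137-57228386, that of C1qb chr4:136886201-136886450 and that of C1qc chr4:136892915-136893164, each on the minus strand. Capitals mark matches on either strand to AGGTCA (the core bound by nuclear receptors), TTNNGNAA (a C/EBP-type motif) and an NF-kappaB-type motif (GGG, then any 5 bases, then CC), and overlapping matches run together.
C3: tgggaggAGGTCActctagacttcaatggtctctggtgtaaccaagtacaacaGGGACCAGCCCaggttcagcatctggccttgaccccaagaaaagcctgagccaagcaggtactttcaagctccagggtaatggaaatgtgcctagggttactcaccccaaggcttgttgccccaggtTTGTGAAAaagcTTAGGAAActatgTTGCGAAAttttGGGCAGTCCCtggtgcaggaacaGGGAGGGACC
C1qb: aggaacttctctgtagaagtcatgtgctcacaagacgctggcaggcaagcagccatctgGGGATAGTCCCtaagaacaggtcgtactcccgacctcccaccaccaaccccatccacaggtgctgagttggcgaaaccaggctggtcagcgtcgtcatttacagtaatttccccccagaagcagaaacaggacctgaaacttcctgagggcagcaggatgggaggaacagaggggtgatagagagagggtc
C1qc: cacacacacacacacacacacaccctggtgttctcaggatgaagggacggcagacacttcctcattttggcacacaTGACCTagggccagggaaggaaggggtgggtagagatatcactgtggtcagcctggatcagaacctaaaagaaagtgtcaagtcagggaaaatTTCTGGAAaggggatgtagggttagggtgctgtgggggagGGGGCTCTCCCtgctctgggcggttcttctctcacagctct
The C3 window held AGGTCA 243 bases before the start and TTNNGNAA at 70, 58 and 45 bases before it, the last reading TTGCGAAA. The NF-kappaB-type motif matched there as GGGCAGTCCC at 33 bases before the start, and also farther up and nearer to the start. Among 32851 RefSeq windows of this length, 14% held AGGTCA, 36.8% held TTNNGNAA and 45.8% held the NF-kappaB-type motif, so the last motif in particular is common. The C1qb window held the NF-kappaB-type motif but neither of the other marked motifs, and the C1qc window held all of them. GAGGAA (PU.1-type, 23.3% of windows) was present in the C1qb and C1qc windows, and TTCNNNGAA (STAT-type, 7.02%), its STAT6-type form with 4 free bases between TTC and GAA (5.85%) and TATAAA (12.4%) were in none of the 3. A match describes the letters only, and binding was not measured.

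All 13 member probes were well above background on all 4 arrays, and 0 of their spots were saturated. A level is the processed signal divided by its array's 75th percentile, as log2, and that percentile was 946 and 847 on the MaR1 arrays and 961 and 988 on the Veh arrays. Each gene is represented by its brightest probe, and probes of different genes are not on a common scale of abundance. Across tested genes, which are not independent replicates, arrays correlated with r = 0.9980 within MaR1, 0.9981 within Veh and at most 0.9913 between the groups. All 4 arrays were on 1 slide with each group at its own positions, so position and treatment cannot be told apart. By limma's moderated test with Benjamini-Hochberg adjustment over all genes, 2699 genes were higher and 3069 lower with MaR1 at an adjusted p under 0.05, which is the meaning of a call in what follows. Without scaling between arrays the counts were 1447 higher and 3940 lower, and the median of all differences moved by -0.12. All 13 Kupffer cell marker genes were measured, and Clec4f, a lectin of Kupffer cells, had levels of 6.46 and 6.39 in MaR1 and 6.43 and 6.34 in Veh, with 0.04 ± 0.07 between the groups. Of the 13, Cd163 (1.38 ± 0.15) and Csf1r (0.29 ± 0.07) were called higher, Adgre1 (-0.67 ± 0.06) and Id3 (-0.59 ± 0.07) were called lower, and 9 were not called. Of all tested genes 24.0% were called.

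Of the 9 genes, C3 rose, C4b and Cfb fell and 6 were not called. C3 was 1.73-fold higher in MaR1 than in Veh cultures, C4b was at 0.697 and Cfb at 0.785 of its Veh level, and the genes not called were C1qa, C1qb, C1qc, C1ra, C2 and Cfp. So 1 member was called higher and 2 lower, 3 of 9, where 24.0% of all tested genes were called (11.2% higher and 12.8% lower). The MaR1 and Veh arrays did not overlap for 8 of the 9 members, 5 higher and 3 lower, a share to be read against 69.6% of all tested genes. The median difference of the members was 0.13, against -0.02 for all genes. The C1q values near this median followed the scaling. With quantile normalization C1qa, C1qb and C1qc were at -0.03, 0.07 and 0.03, against a median of -0.03 for all genes. Without scaling they were at 0.01, 0.06 and 0.01, against -0.14. In bulk RNA, fewer cells that express a gene and less of its RNA per cell cannot be told apart.

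**Figure D1:**
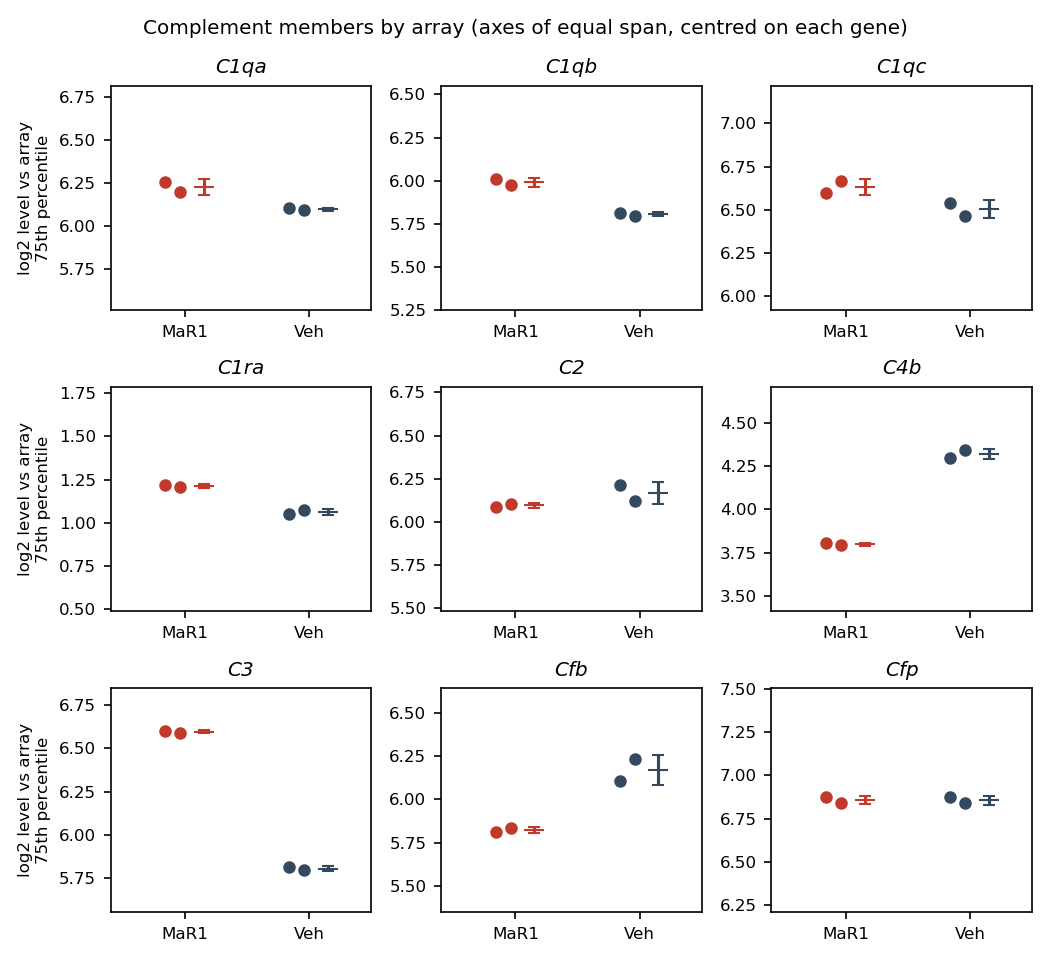
Level of each complement member on each array (points, log2 scale with the 75th percentile of the array at 0) with the group mean ± SD (bars, n = 2 arrays) for MaR1 (red, left) and Veh (grey, right). C3 lies higher and C4b and Cfb lower in MaR1, while the groups overlap for Cfp only.

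C1q is a hexamer of units built from the A, B and C chains, and its genes gave small positive differences that were not called. C1qa had levels of 6.26 and 6.19 in MaR1 and 6.10 and 6.09 in Veh, a difference of 0.13 ± 0.06 (adjusted p = 0.177), where ± after a difference is the standard error from limma with n = 2 per group. C1qb had 6.01 and 5.97 in MaR1 and 5.81 and 5.80 in Veh, a difference of 0.19 ± 0.06 (adjusted p = 0.0801). C1qc had 6.60 and 6.66 in MaR1 and 6.54 and 6.47 in Veh, a difference of 0.13 ± 0.06 (adjusted p = 0.208). The MaR1 arrays were the higher ones for every chain. The size and, for C1qa, the sign of the difference followed the scaling: with quantile normalization the values were -0.03 for C1qa, 0.07 for C1qb and 0.03 for C1qc, and without scaling 0.01, 0.06 and 0.01. The upper 95% limits of the 3 differences were 0.29, 0.34 and 0.30, so these arrays leave room for a rise of up to that size on the log2 scale. With a variance trend in the fit, C1qa (adjusted p = 0.0487) and C1qb (adjusted p = 0.00648) were called.

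C1ra encodes a C1r protease, the enzyme of the C1 complex that activates C1s. Its levels were 1.22 and 1.21 in MaR1 and 1.05 and 1.07 in Veh. The MaR1 arrays were higher by 0.15 ± 0.05, which was not called (adjusted p = 0.116, and 0.0408 with a variance trend). Without scaling the value was 0.03.

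C4b encodes complement component C4, whose larger fragment binds covalently to surfaces. Its levels were 3.80 and 3.79 in MaR1 and 4.30 and 4.34 in Veh. Both MaR1 arrays were thus clearly below both Veh arrays, and C4b fell by 0.52 ± 0.06 on the log2 scale (-0.52, adjusted p = 0.00934). In a fit over all probes, its other probe gave levels of 1.42 and 1.45 in MaR1 and 2.03 and 2.05 in Veh, a difference of -0.61 ± 0.06 (adjusted p = 0.00673). The call was lost without Veh replicate 2 (adjusted p = 0.0541) or MaR1 replicate 2 (adjusted p = 0.0518), at differences of -0.50 and -0.52. C4a, a near-identical copy of C4b on the same chromosome, also fell (-0.63 ± 0.06, adjusted p = 0.00764). Signal from one copy may reach probes of the other, so the values of C4a and C4b are not independent.

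C2, the protease that joins C4 in the classical C3 convertase, was not called. Its levels were 6.08 and 6.11 in MaR1 and 6.21 and 6.12 in Veh. The highest MaR1 array lay just below the lowest Veh array. The difference was -0.07 ± 0.06 (adjusted p = 0.436), with a 95% interval of -0.24 to 0.10, and with quantile normalization it was -0.21, also not called (adjusted p = 0.0616).

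C3 encodes the component on which all activation pathways converge, the source of the opsonins C3b and iC3b and of the anaphylatoxin C3a. Its levels were 6.60 and 6.59 in MaR1 and 5.81 and 5.79 in Veh. The arrays of a group lay close together, and the groups were far apart by comparison. C3 rose by 0.79 ± 0.05 on the log2 scale (adjusted p = 0.00418), with a 95% interval of 0.65 to 0.94. Counted from the highest difference, it held rank 869 of 24056 genes. Its other probe gave 5.62 and 5.65 in MaR1 and 4.59 and 4.55 in Veh, a larger difference of 1.06 ± 0.06 (adjusted p = 0.00295 over probes). C3 was called higher under all 10 alternative settings, with differences of 0.67 to 0.93, and whichever array was left out.

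Factor B, encoded by Cfb, is the protease of the alternative pathway convertase and the counterpart of C2. Cfb had levels of 5.81 and 5.83 in MaR1 and 6.11 and 6.23 in Veh, and its Veh arrays differed more from each other than those of any other member. Cfb fell (-0.35 ± 0.07, adjusted p = 0.0335), with a 95% interval of -0.54 to -0.16. Its other probe gave 3.81 and 3.81 in MaR1 and 4.32 and 4.24 in Veh, a difference of -0.47 ± 0.06 (adjusted p = 0.0141 over probes). The call of Cfb was lost whichever array was left out (adjusted p = 0.0772 without Veh replicate 1, 0.130 without Veh replicate 2, 0.109 without MaR1 replicate 1 and 0.109 without MaR1 replicate 2). It was also lost with no filter on dim probes (adjusted p = 0.0594).

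Cfp encodes properdin, which unlike most components is made by leukocytes rather than hepatocytes. Its levels were 6.88 and 6.84 in MaR1 and 6.87 and 6.84 in Veh. The groups overlapped, and the difference was 0.00 ± 0.06 (adjusted p = 0.989), with a 95% interval of -0.15 to 0.15. Its other probe gave 5.02 and 4.98 in MaR1 and 4.90 and 4.86 in Veh, a difference of 0.12 ± 0.06 that was not called. The brightest probe gave -0.12 without scaling and -0.09 with quantile normalization.

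**Figure D2:**
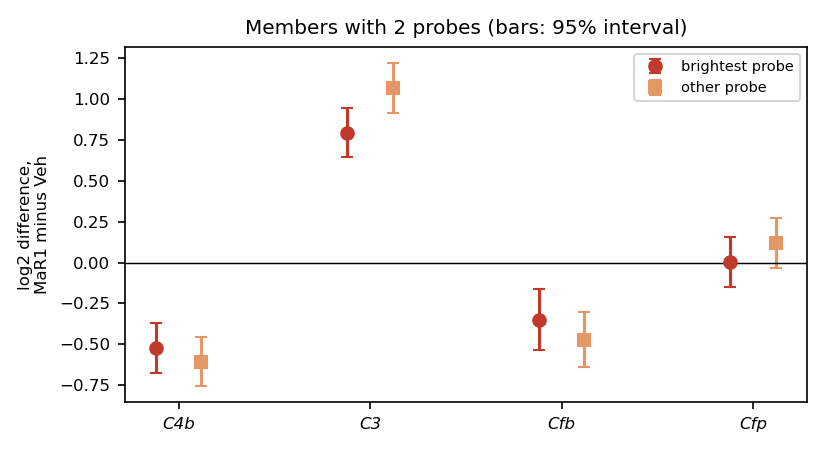
Log2 difference (MaR1 minus Veh) of each probe of the 4 members with 2 probes, with 95% intervals of the fit over probes. Both probes of C3 lie above 0, those of C4b and Cfb lie below 0, and the intervals of both Cfp probes include 0.

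The members' calls are to be read against how many genes each setting called. The share of all genes called was 22.6% with quantile normalization, 22.4% without scaling, 30.4% with normexp and 24.4% in the authors' deposited table. In each of these, 1 member was called higher and 2 lower. A stricter filter on dim probes called 26.5% of genes, the mean of a gene's probes 24.3% and every probe on its own 24.3%, again with 1 member higher and 2 lower. A variance trend called 38.2% of genes, with 4 members higher and 2 lower, whereas no filter on dim probes called 4.51%, with 1 higher and 1 lower. The share was 8.58% without Veh replicate 1, 9.03% without Veh replicate 2, 11.8% without MaR1 replicate 1 and 8.18% without MaR1 replicate 2. With an array left out 1 member was called higher each time, and C4b or none was called lower.

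**Figure D3:**
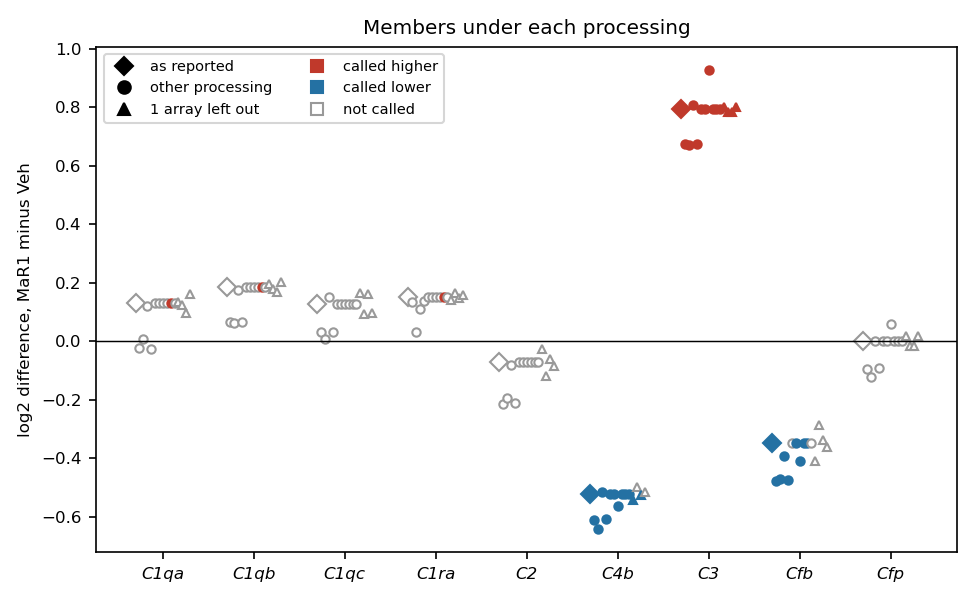
Log2 difference (MaR1 minus Veh) of each member as reported (diamond), under each other processing (circles) and with 1 array left out (triangles), filled where called. C3 stays between 0.67 and 0.93 and called throughout, C4b loses its call in 2 cases, Cfb loses its call in 6, and C1qa lies on either side of 0.

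The C1q chain genes are 1 gene cluster, and C4b, Cfb and C2 belong to another. C1qb, C1qc and C1qa are direct neighbours on chromosome 4, and 0 of these 3 was called. C4b, Cfb and C2 lie on chromosome 17 in the class III part of the major histocompatibility complex, where Cfb and C2 are next to each other. Of 8 genes listed as protein-coding from C4b to C2 in the RefSeq order used, 3 were lower, 0 higher and 5 not called. Of all genes 12.8% were lower, and 2 of the 3 are members. The third lower gene was Skiv2l (-0.25 ± 0.06, adjusted p = 0.0455), which encodes an RNA helicase and lies between them. Cyp21a1, listed next to C4b, had a value of 0.20 ± 0.07 (adjusted p = 0.122). C4a, which also fell, is not among these 8 genes and is left out of the count. Whether Cfb and its neighbour C2 differed in their response was not tested, and their 95% intervals overlap.

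The members belong to a complement list of 55 genes. Of the whole list, 49 genes were tested and 6 were not, because Cfd, Cpn1, Cpn2, Csmd1, Fcnb and Mbl1 had no probe well above background. Of the 49, 6 rose, 11 fell and 32 were not called. That is 12.2% higher and 22.4% lower, against 11.2% and 12.8% of all genes, and the median difference was -0.07 against -0.02. Without the 9 members, 40 of 46 genes were tested, of which 5 rose and 9 fell, with a median of -0.09. Masp1, 1 of the genes counted as higher, passed the filter through the MaR1 arrays alone. With fewer arrays fewer genes of the list were called. The lower count was 5 without Veh replicate 1, 4 without Veh replicate 2, 6 without MaR1 replicate 1 and 4 without MaR1 replicate 2, with 3 higher without either MaR1 array. The list was 3 higher and 6 lower with no filter on dim probes, 10 higher with normexp and 14 higher with a variance trend.

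Among receptors, those for the C5 fragment fell and the C3a receptor was not called. C5ar1, the receptor through which C5a attracts and activates myeloid cells, had levels of 0.67 and 0.65 in MaR1 and 1.79 and 1.83 in Veh, well apart, and fell (-1.15 ± 0.06, adjusted p = 0.00264). C5ar2, a second C5a receptor, had levels of 1.25 and 1.19 in MaR1 and 1.87 and 1.91 in Veh, and fell as well (-0.66 ± 0.06, adjusted p = 0.00642). C3ar1, the receptor for C3a, had levels of 2.43 and 2.45 in MaR1 and 2.50 and 2.53 in Veh, with a difference of -0.08 ± 0.06 (adjusted p = 0.364). Vsig4, the receptor by which Kupffer cells take up C3-coated bacteria, had 3.02 and 2.90 in MaR1 and 2.66 and 2.74 in Veh. It was higher by 0.26 ± 0.07 and not called (adjusted p = 0.0707, 0.0399 with normexp and 0.00199 with a variance trend). Without scaling its difference was 0.14 (adjusted p = 0.504).

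The integrin chains that bind iC3b went opposite ways. Itgax, the alpha chain of complement receptor 4 (CD11c), had levels of 2.85 and 3.01 in MaR1 and 0.55 and 0.54 in Veh, and rose by 2.39 ± 0.08 on the log2 scale (adjusted p = 0.00154). Itgam, the alpha chain of complement receptor 3 (CD11b), had levels of -0.14 and -0.33 in MaR1 and 0.59 and 0.56 in Veh, and fell (-0.81 ± 0.09, adjusted p = 0.00949). Itgb2, the beta chain that they share, named here after its value was seen, was not called (0.04 ± 0.07, adjusted p = 0.672). The calls of C5ar1, C5ar2, Itgax and Itgam held whichever array was left out, and that of Itgam was lost with no filter on dim probes (adjusted p = 0.0525). CD11c also marks dendritic cells. Where 11.2% of all genes were higher and 12.8% lower, 6 of 11 tested dendritic cell markers rose and 0 fell. Their summed level was 68.4 and 67.9 in MaR1 and 50.3 and 46.9 in Veh (in units of the array's 75th percentile), and Xcr1 was on no array well above background. It is a sum of linear levels and so follows the brightest genes. Batf3, among the brightest, had levels of 4.59 and 4.65 in MaR1 and 2.73 and 2.74 in Veh. Both MaR1 arrays were above both Veh arrays for 8 of the 11 markers, where 32.7% of all genes were. They were below for 2, Siglech and Flt3, where 36.8% of all genes were. The share of dendritic cells in the Itgax value was not tested. C1qbp, which encodes a mitochondrial protein that can bind C1q and is named here after its value was seen, rose (0.31 ± 0.05, adjusted p = 0.0256), but its call was lost whichever array was left out, without scaling (0.19, adjusted p = 0.299) and with no filter (adjusted p = 0.0540). Of the 10 receptor genes in all, 2 rose, 3 fell and 5 were not called, where 11.2% of all genes were higher and 12.8% lower.

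**Figure D4:**
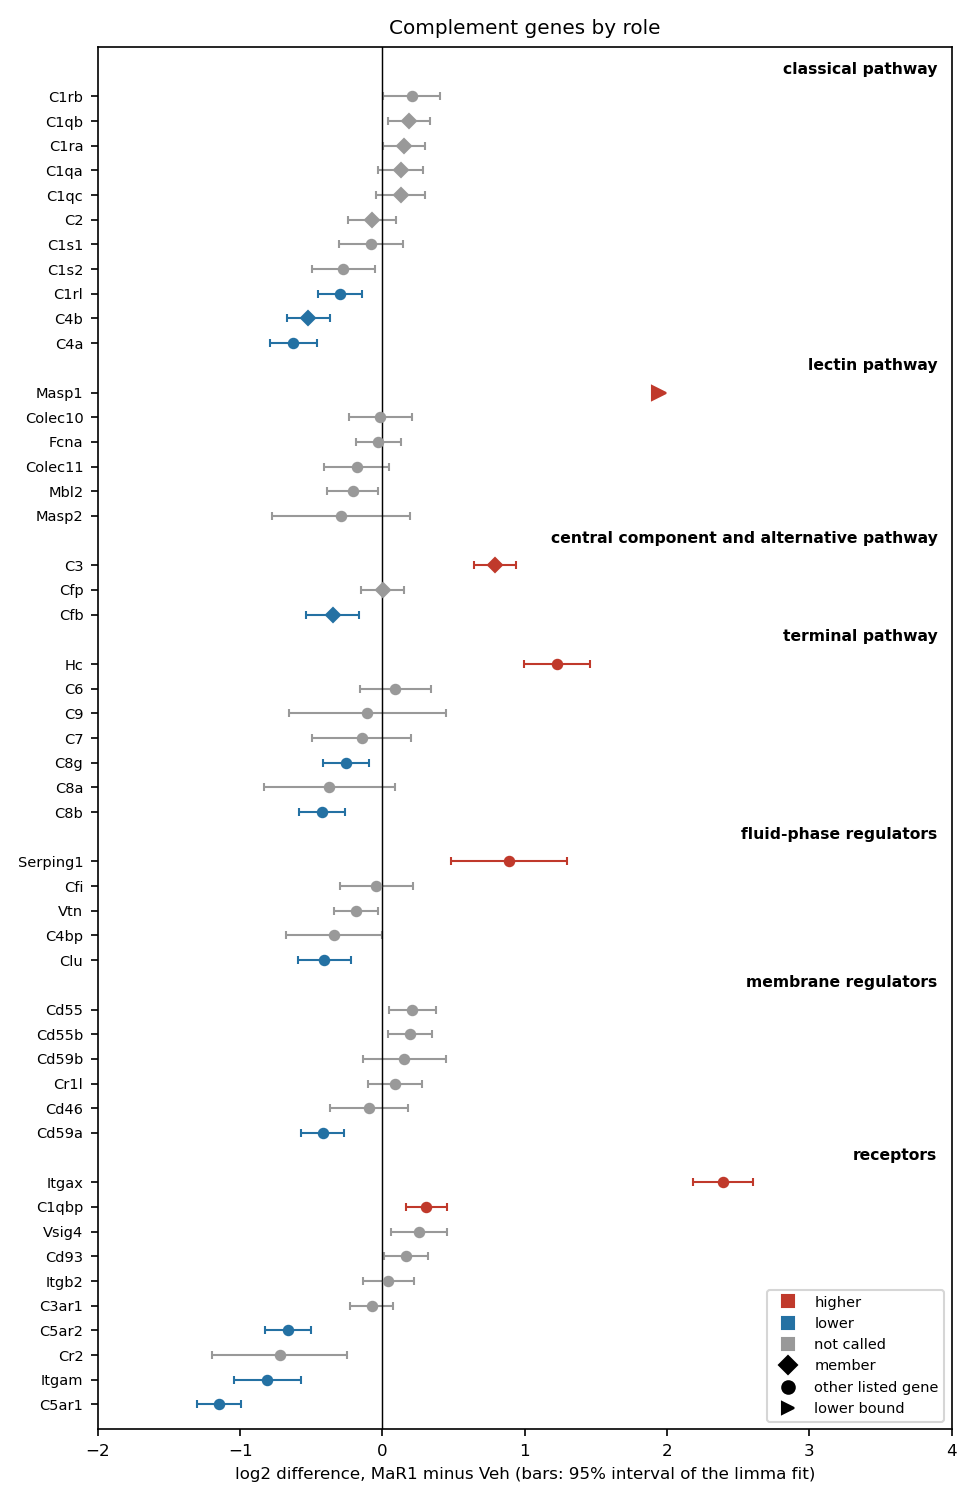
Log2 difference (MaR1 minus Veh) of tested complement genes by role, with 95% intervals of the limma fit, coloured by call, with members as diamonds. Masp1, not well above background in Veh, is drawn at its lower bound, and C3, Hc, Serping1 and Itgax lie to the right while C4b, C4a, C5ar1, C5ar2 and Itgam lie to the left.

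Among components that act after C3, Hc rose and 2 genes of the C8 chains fell. Hc, which encodes C5, had levels of -2.90 and -3.08 in MaR1 and -4.18 and -4.25 in Veh, and rose by 1.23 ± 0.08 on the log2 scale (adjusted p = 0.00421), a call that held whichever array was left out. With normexp its value was 0.69, still called. The C8 chain genes C8b (-0.42 ± 0.06, adjusted p = 0.0158) and C8g (-0.25 ± 0.06, adjusted p = 0.0487) fell, but their calls were lost whichever array was left out, and C8b was not called with normexp (-0.16, adjusted p = 0.154) or with a variance trend (adjusted p = 0.128). C8g was not called with quantile normalization (adjusted p = 0.0578), in the authors' deposited table (0.0511) or with no filter (0.0594). The C8b probe used was dim, at -5.08 and -5.01 in MaR1 and -4.61 and -4.62 in Veh. The other C8b probe was on no array well above background. C8a (-0.37 ± 0.17, adjusted p = 0.180) was not called. Of the 7 terminal pathway genes, 1 rose, 2 fell and 4 were not called, where 11.2% of all genes were higher and 12.8% lower.

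Of 12 tested regulators of the cascade, 1 rose and 2 fell, a share near the 24.0% of all genes called. Serping1, which encodes the C1 inhibitor that removes C1r and C1s from C1q, had levels of 0.40 and 0.29 in MaR1 and -0.74 and -0.35 in Veh. It rose by 0.89 ± 0.15 on the log2 scale (adjusted p = 0.0237), although its call was lost without MaR1 replicate 1 or MaR1 replicate 2 (adjusted p up to 0.0920) and with no filter on dim probes (0.0594). Clu, the gene of the terminal complex inhibitor clusterin, fell (-0.41 ± 0.07, adjusted p = 0.0235), and so did Cd59a, a membrane inhibitor of pore formation (-0.42 ± 0.06, adjusted p = 0.0146), but each lost its call whichever array was left out, and Clu also with no filter (0.0594). Vtn had a value of -0.19 ± 0.06 (adjusted p = 0.0838). Cd55 (0.21 ± 0.06, adjusted p = 0.0753), which speeds the decay of convertases, its copy Cd55b (0.20 ± 0.06), Cd59b (0.15 ± 0.11) and the rodent C3b regulator Cr1l (0.09 ± 0.07, adjusted p = 0.386) were not called, although Cd55 and Cd55b were with normexp and with a variance trend. Of the tested regulators, 1 of 6 in the fluid phase rose and 1 fell, and on membranes 0 of 6 rose and 1 fell.

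Outside the members, 2 of 5 classical pathway genes fell and 1 of 6 tested lectin pathway genes was called higher, against 24.0% of all genes called. The classical genes that fell were C4a, described above, and C1rl. C1rl, a C1r-like protease gene, fell (-0.30 ± 0.06, adjusted p = 0.0317), a call lost whichever array was left out and with no filter on dim probes (0.0594). C1s2 (-0.27 ± 0.08, adjusted p = 0.0808) and C1rb (0.21 ± 0.07, adjusted p = 0.116) were not called, and as near-identical copies of C1s1 and C1ra their signals may be mixed. Masp1, a protease of the lectin pathway, was well above background on both MaR1 arrays (-3.77 and -3.88) and on neither Veh array (-7.53 and -6.20). On the processed signal a bound put it at least 3.85-fold higher (adjusted p = 0.0187 on the measured signals). The bound set the MaR1 mean against, on each Veh array, the higher of its own signal and the lowest signal of any probe well above background. Since it passed the filter through the MaR1 arrays alone, a difference was favoured in advance, and the p-value adds no support. Its other probe was on no array well above background, and the call was lost without either MaR1 array (adjusted p up to 0.0809) and with no filter on dim probes (0.0594). With normexp its difference was 0.82, still called but below that bound, which holds for the processed signal only. Masp1 was not among the genes tested with the stricter filter on dim probes or in the authors' deposited table. Mbl2 (-0.21 ± 0.07), Colec11 (-0.18 ± 0.08) and Masp2 (-0.29 ± 0.18) were not called.

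Markers of other liver cells moved to differing degrees in the same arrays. The counts called in each list are to be read against 11.2% of all genes higher and 12.8% lower. Hepatocytes make C3, C4 and factor B: of 14 tested hepatocyte markers 0 rose, 3 fell and 11 were not called, the median difference was -0.27, and their summed level was 40.0 and 39.5 in MaR1 and 47.5 and 45.0 in Veh. Alb, the albumin gene, had levels of 2.93 and 3.08 in MaR1 and 3.30 and 3.17 in Veh (-0.23 ± 0.09, adjusted p = 0.125), and Cps1 was on no array well above background. Of 10 stellate cell and fibroblast markers 0 rose and 3 fell, with a median of -0.33 and summed levels of 56.2 and 53.8 in MaR1 and 57.5 and 58.2 in Veh. Des and Lrat were on no array well above background, and Col1a1 had a value of -0.34 ± 0.19 (adjusted p = 0.253). The medians of these lists lay on the side of C4b and Cfb and opposite to C3. Medians were also negative for the T and NK cell (-0.22), Kupffer cell (-0.09) and neutrophil (-0.02) lists, and positive for the other lists. The summed level of the T and NK cell list was nonetheless higher with MaR1, 56.5 and 63.4 against 33.2 and 32.0 in Veh. That sum follows Gzma, the brightest gene of the list, which rose (1.37 ± 0.09). The part of hepatocytes and stellate cells in the values of C4b and Cfb was not tested. The 13 Kupffer cell markers summed to 1102 and 1082 in MaR1 and 1193 and 1144 in Veh, with 2 higher and 2 lower. Of 6 tested B cell markers 3 rose, and their sum was 4.68 and 4.21 in MaR1 and 2.57 and 2.90 in Veh. Monocytes also make C3: of 7 monocyte markers 3 rose and 2 fell, and their sum was 257 and 245 in MaR1 and 227 and 218 in Veh. Among T and NK cell markers 2 of 9 rose and 4 fell, among sinusoidal endothelial markers 4 of 11 rose and 1 fell, among cholangiocyte markers 1 of 6 rose and 0 fell, and among neutrophil markers 0 of 8 rose and 1 fell. The part of these cells in the C3 value was not tested.

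**Figure D5:**
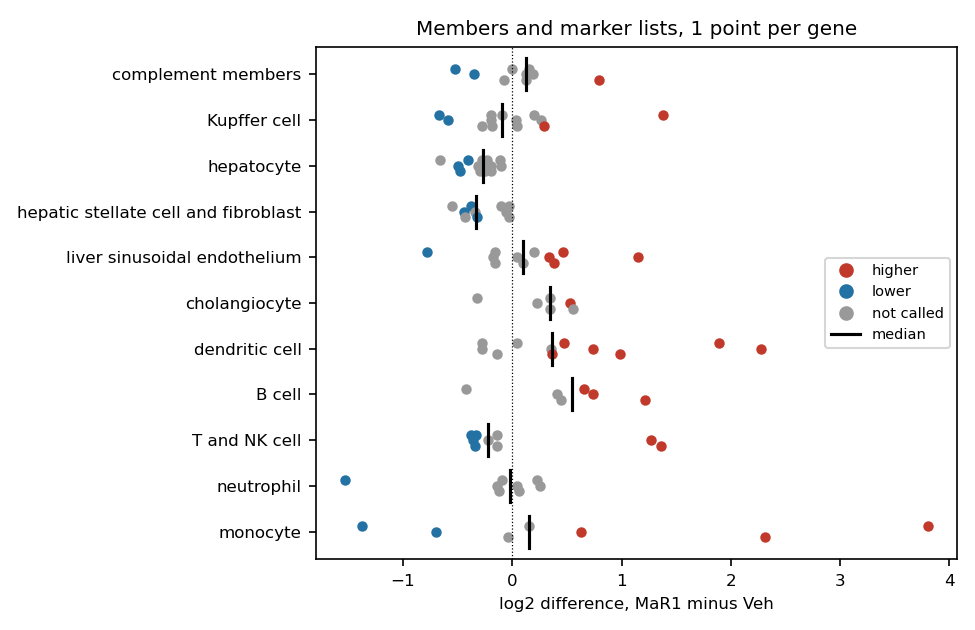
Log2 difference (MaR1 minus Veh) of each complement member and of each tested marker gene by cell type, coloured by call, with the median of each list as a black line. The hepatocyte and stellate cell lists lie below 0, with medians of -0.27 and -0.33, and the members spread from -0.52 to 0.79.

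The genes whose centred levels over the 4 arrays lay closest to C3, by Euclidean distance among tested genes with a RefSeq symbol, were Gins2, Pfkp and Cpox. Gins2, a DNA replication gene, was at a distance of 0.0242 with a difference of 0.79, Pfkp, a glycolysis gene, at 0.0260 with 0.81, and Cpox, a haem synthesis gene, at 0.0285 with 0.77. With 2 groups of 2 arrays this likeness amounts to a difference of nearly equal size.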

How the data were processed

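Single-colour Agilent arrays of 4 samples, 2 MaR1 and 2 Veh, were grouped by their titles. The deposited intensity values come from Agilent Feature Extraction 11.0.1.1, per the file headers; its processed signal has the background removed, with a spatial detrend. The authors' deposited log2 value table, used as an alternative, has no stated scale, centring or filter; its columns each had a median of 9.07, followed the scanner values of the matching array and had nearly equal distributions, as quantile normalization gives.

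From each log2 processed signal the array's 75th percentile was subtracted. Control and outlier spots were dropped, and 31129 of 56605 probes passed the filter (well above background on both MaR1 or both Veh arrays). Of all probes, 32994 matched 1 RefSeq symbol (GRCm38.p6) and 23611 kept their design identifier. The brightest kept probe stood for a gene, with no value missing on any array. The test was limma's (version 3.58.1, lmFit then eBayes, R 4.3.3), two-sided with Benjamini-Hochberg adjustment at 0.05 and without a replicate term, after a check on simulated data. The number of arrays limits the precision. Figures were drawn with matplotlib 3.10.9. The alternatives were quantile normalization, no scaling, normexp (offset 50, on the median spot signal), the authors' table, no filter and a stricter filter, averaging the probes of a gene, testing probes singly, a variance trend, a replicate block and leaving out each array.

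Named besides the members were up to 4 genes of each role with the smallest unadjusted p, further complement genes (C3ar1, C5ar1, Vsig4 and Cr1l), marker genes and the 3 nearest patterns. The members and lists were chosen with earlier results of these data known. In the counts of the complement list, 1 gene is included whose values are not reported here.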

Additional observations from a re-analysis of the deposited data

How the results depend on the processing

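C3 kept its direction and call under all 10 alternative settings and without each array, and C4b under the 10 settings. Of 556 values of the 40 other tested complement genes under alternatives, 497 stayed called or uncalled, 44 lost and 15 gained a call. In sign, 0 called values reversed. A value called in neither fit could change its sign and still count among the 497, as did C8a (-0.37, and 0.04 with normexp). With no filter on dim probes, which tests more genes, Cfb lost its call at -0.35, which left C4b as the 1 lower member, the complement list had 3 higher and 6 lower, and all genes 1087 and 972. With a variance trend, C1qa (0.13), C1qb (0.19) and C1ra (0.15) were called, giving 4 higher members, 14 higher on the list, and 4525 higher and 4670 lower of all genes. With normexp, 10 of the list were higher, and without scaling 1447 of all genes. With the replicate number as a block Cfb lost its call (-0.35), leaving 1 lower member, and 1766 genes were higher and 1926 lower; no other member changed its call. The labels do not say what a number marks, and differences between the replicates of a group correlated with r = -0.03 between groups, across genes. Leaving out each array gave -0.41 to -0.29 for Cfb, -0.54 to -0.50 for C4b, 0 to 1 lower members, 3 to 5 higher and 4 to 6 lower on the list, and 1011 to 1336 higher and 916 to 1491 lower of all genes. The lone array of a group was then assumed to vary like the other group. The causes were not tested beyond the number of arrays and genes.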
